A study of Mus musculus with 18 samples.

Results

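The 10 genes studied were Ptgs1, Ptgs2, Ptges, Ptgis, Ptgds, Alox5, Alox5ap, Alox15, Ltc4s and Lta4h. Apart from Alox15, a further lipoxygenase, they encode enzymes of prostaglandin and leukotriene synthesis and the protein that presents arachidonic acid to one of them. The genes were taken by symbol, as a list of 10 among the 24419 gene symbols of the expression table. All 10 were found, and all 10 were among the 13333 genes that reached an expression level of 1 FPKM in at least 1 mouse and were tested. FPKM are fragment counts scaled to transcript length and to all mapped fragments, so that levels can be set side by side between genes.

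RNA was sequenced from the hearts of 18 male C57BL/6 mice that were 8 weeks old. In 15 of them acute myocardial infarction (AMI) was produced under sodium pentobarbital anaesthesia by tying off the left anterior descending coronary artery near its origin, and infarcted left ventricle was taken 10 min, 1 h, 6 h, 24 h or 72 h later, from 3 mice at each time. The other 3 mice were the control group, called sham in the study. Each library was of tissue from 1 mouse, and no pooling of mice is stated. Cardiomyocyte markers summed to between 16216 and 41246 FPKM in every mouse, so the tissue matched its label as heart. The deposited FPKM summed to between 542418 and 600467 per mouse, and the depth of the libraries, estimated from the lowest values, ran from 0.818 to 1.33 times that of the first control mouse. The mice of 72 h had the lowest sums of all (542418 to 560482 FPKM). Their relative depths were 1.33, 1.33 and 1.22, beside 1.24 in mouse 2 of 24 h and 1.21 in mouse 2 of 10 min.

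Prostaglandins and leukotrienes are eicosanoids, short-lived lipid signals that cells make from arachidonic acid. Phospholipases free this fatty acid from membranes. The cyclooxygenases, encoded by Ptgs1 and Ptgs2, turn it into prostaglandin H2, from which terminal synthases make prostaglandin E2, D2, prostacyclin and thromboxane. Along the other branch, 5-lipoxygenase (Alox5) and its activating protein (Alox5ap) make leukotriene A4, which Lta4h turns into leukotriene B4, an attractant of neutrophils, and Ltc4s into the cysteinyl leukotrienes. Ptgs1 is regarded as the constant cyclooxygenase of most tissues and Ptgs2 as the inducible one. In the heart, prostacyclin and prostaglandin E2 are known as vasodilators, and leukotrienes as signals of leukocyte recruitment.

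Promoter sequences of RefSeq on GRCm38.p6 were matched by symbol for 7 of the 10 genes, not for Ptgis, Alox5ap and Alox15. The 250 bases before the start of transcription are shown for both cyclooxygenases, which convert the same substrate but had different time courses, and for Ptgds, the gene of highest control level, which fell at 72 h. Capitals mark the words found by a search on both strands. The Ptgs2 stretch lies at chr1:150099781-150100030 on the plus strand, the Ptgs1 stretch at chr2:36230176-36230425 on the plus strand and the Ptgds stretch at chr2:25469750-25469999 on the minus strand. The starts are those of the promoter sequences. By the GENCODE gene bounds given below, the stretches of Ptgds and Ptges lie inside their genes, and that of Ltc4s does so in part. The first bases after the Lta4h start were not matched to the start of a GENCODE transcript.
Ptgs2: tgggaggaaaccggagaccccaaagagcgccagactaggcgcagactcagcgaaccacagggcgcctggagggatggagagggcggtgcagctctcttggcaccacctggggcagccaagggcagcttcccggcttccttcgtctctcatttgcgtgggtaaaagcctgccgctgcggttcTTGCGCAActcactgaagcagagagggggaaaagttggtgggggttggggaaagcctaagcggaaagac
Ptgs1: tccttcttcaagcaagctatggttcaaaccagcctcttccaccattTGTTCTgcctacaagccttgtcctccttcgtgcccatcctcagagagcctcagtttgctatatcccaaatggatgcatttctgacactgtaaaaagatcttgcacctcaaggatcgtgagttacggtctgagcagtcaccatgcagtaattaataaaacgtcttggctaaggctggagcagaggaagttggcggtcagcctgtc
Ptgds: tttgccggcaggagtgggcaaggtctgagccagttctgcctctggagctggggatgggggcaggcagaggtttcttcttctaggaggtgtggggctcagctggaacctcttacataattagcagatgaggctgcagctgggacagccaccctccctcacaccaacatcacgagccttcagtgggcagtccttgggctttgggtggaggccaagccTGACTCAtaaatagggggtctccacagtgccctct
The words searched were TATAAA (core promoter box), TGACGT (part of the cyclic AMP response element), CACGTG (E-box), TGANTCA (AP-1), TTNCGNA (part of the C/EBP motif), GGGANTT (part of the NF-kappaB motif), AGAACA (part of the glucocorticoid response element) and ACGTG (core of the hypoxia response element). CACGTG contains ACGTG, and the other words can overlap only at their ends. The Ptgs2 stretch held TTNCGNA on both strands, in 2 overlapping matches that begin 69 and 68 bases before the start, a word present in 12.0% of the 32851 promoters of this length. In the Ptgs1 stretch AGAACA was found on the minus strand at 204 bases before the start, and in that of Ptges at 191 bases on the plus strand, against 16.1% of all promoters. For Ptgds the AP-1 word TGANTCA, found in 6.75% of all promoters, lay 35 bases before the start. No word of the search was found in the windows of Alox5, Ltc4s and Lta4h. GC content was 61.6% for Ptgs2, 58.4% for Ptgds and 48.0% for Ptgs1, beside a median of 52.4% over all promoters. These matches describe letters only, and no binding was measured.

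The genes were first called at different times. Ptgs2 rose within 1 h, Alox5ap and Ptgis were higher from 6 h on, and Ptgs1, Ptges, Alox15, Ltc4s and Lta4h were higher than control at 72 h. Ptgds, the prostaglandin D synthase, fell at 72 h, Alox5 was lower at 6 h and at 72 h, and Ltc4s was lower at 6 h. The order of these times was not itself tested. Each time point was compared with the control mice by two-sided limma tests on log2(FPKM + 1) whose p-values were adjusted by Benjamini-Hochberg across every gene in the comparison, and a gene was called at an adjusted p under 0.05. The log2 fold change (log2FC) is given as the difference between group means on the log2(FPKM + 1) scale ± its SE, a scale that compresses changes near or under 1 FPKM. With 3 mice against 3, an exact permutation test of 1 gene could not go below p = 0.1, so the calls rest on the spread shared across genes. The 5 comparisons with control share the same 3 control mice.

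At 10 min none of the 10 genes was called, against 0.248% of all genes called higher and 0.0978% called lower, and 1 of the 10, Ltc4s, had an unadjusted p under 0.05. At 1 h limma called 1 of the 10 higher, where 0.669% of all genes were higher and 0.0526% lower. At 6 h 3 of the 10 were higher and 2 lower, beside 11.6% and 16.8% of all genes. At 24 h 3 were higher and none lower by limma, beside 26.2% and 11.4%, and 1 further gene, Alox5, had an unadjusted p under 0.05. At 72 h all 10 were called, 8 higher and 2 lower, where 53.1% of all genes were called higher and 24.2% lower. A large part of all genes thus passed the test at 72 h, and the count of the 10 has to be read against that share. The median log2 fold change of the 10 genes was 0.18 for the 6 h mice, 0.07 for the 24 h mice and 0.88 for the 72 h mice, and that of all genes -0.0831, 0.127 and 0.288. Since the median of all genes at 72 h was 0.288 as deposited, 0.0375 after median-of-ratios scaling and -0.117 after quantile normalization, changes at 72 h are also given relative to it.

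**Figure D1:**
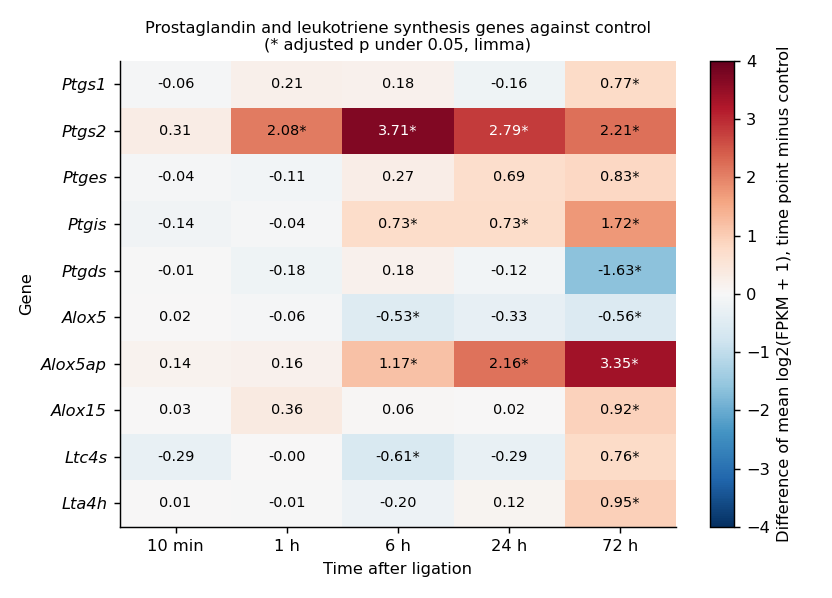
Differences of mean log2(FPKM + 1) between each time point and control for the 10 genes (rows) at 5 times after ligation (columns), with red for higher, blue for lower and an asterisk for an adjusted p under 0.05 by limma. Ptgs2 was the 1 gene called at 1 h, and all 10 were called at 72 h, where Ptgds (-1.63) and Alox5 (-0.56) were the 2 lower genes.

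Of the cyclooxygenases, Ptgs2 was near absent in control hearts and rose early. It had 0.108, 0.332 and 0.452 FPKM in the 3 control mice and 1.01, 0.319 and 0.525 FPKM at 10 min. The ranges of these groups overlapped. At 1 h the mice had 6.12, 4.13 and 3.43 FPKM, all above every control and 10 min mouse (log2FC against control 2.08 ± 0.18, adjusted p = 0.0015). At 6 h they had 34.1, 7.25 and 15.5 FPKM, a mean of 19.0 ± 13.8 (SD, n = 3) against 0.297 ± 0.174 in control hearts, which is 63.8 times as high (log2FC 3.71 ± 0.46, adjusted p = 0.00236). The ratio rested on single mice, being 38.3 without mouse 1 of 6 h, 83.6 without mouse 2 of 6 h, 48.4 without control mouse 1 and 86.3 without control mouse 3. The mice of 6 h differed widely among themselves, and so did those of 24 h, with 4.76, 3.77 and 24.8 FPKM (log2FC 2.79 ± 0.59, adjusted p = 0.0141). The call at 24 h was lost without control mouse 1 (adjusted p = 0.0588) or without control mouse 2 (adjusted p = 0.0526). At 72 h the level was 4.74, 6.45 and 3.93 FPKM, again with little spread and above all control mice (log2FC 2.21 ± 0.16, adjusted p = 3.71e-06; 1.92 above the median of all genes). The order of the group means was control, 10 min, 1 h, 72 h, 24 h and 6 h, in which 10 min and 1 h were the only neighbours whose mice did not overlap. With a pseudocount of 0.1 in place of 1 the difference reached 3.62 at 1 h and 5.43 at 6 h. Placing all 18 mice in 1 fit ended the call at 1 h (adjusted p = 0.196).

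Ptgs1 kept to a narrow range until 24 h. It had 4.0, 3.62 and 4.68 FPKM in the control mice and between 3.33 and 5.63 FPKM in every mouse from 10 min to 24 h, and none of these groups was called against control. At 72 h the mice had 7.96, 6.99 and 8.16 FPKM, above all 15 other mice. The mean rose from 4.1 ± 0.534 to 7.7 ± 0.624 FPKM (SD, n = 3; log2FC 0.77 ± 0.1, adjusted p = 0.000114; 0.49 above the median of all genes). Median-of-ratios scaling gave 0.51 for Ptgs1 (adjusted p = 0.00139) and quantile normalization 0.31 (adjusted p = 0.0198). After quantile normalization Ptgs1 was also called lower at 24 h (log2FC -0.38, adjusted p = 0.0458), whereas the deposited values gave -0.16 (adjusted p = 0.3). The share of Ptgs2 in the summed FPKM of both cyclooxygenases was 6.61% ± 3.45 in control hearts (SD, n = 3). It reached 13.5% ± 6.93 after 10 min, 47.7% ± 5.58 after 1 h and 74.5% ± 15.1 after 6 h, and then stood at 65.1% ± 20.0 in the 24 h mice and 39.3% ± 7.93 in the 72 h mice. Ptgs1 transcripts thus made up the larger share in control and 10 min mice, and those of Ptgs2 in all 6 mice of 6 h and 24 h.

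**Figure D2:**
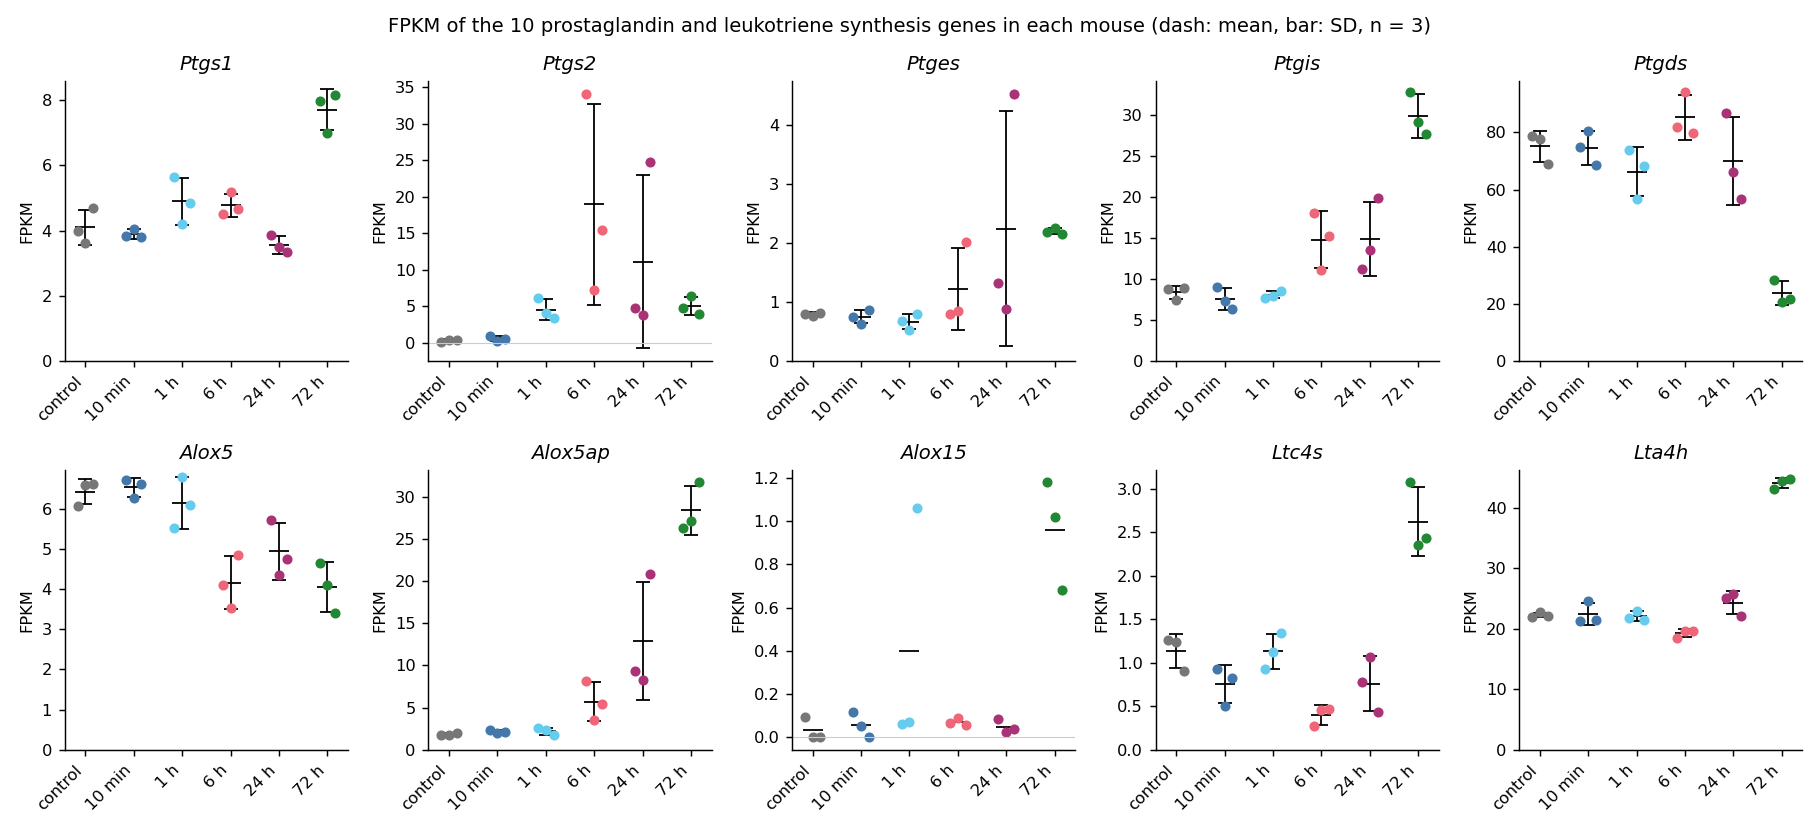
FPKM of each of the 10 genes (1 panel each, linear axis) in the 3 mice of each group, where points are mice in the order 1, 2, 3, dashes are group means and bars are SD, left out for Alox15, which was listed at 0 in some mice. The 3 mice of 72 h stood apart from the control mice in every panel, below them for Ptgds and Alox5, and the mice of 6 h and 24 h were widely spread for Ptgs2, Ptges and Alox5ap.

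Among the terminal prostanoid synthases, Ptgis rose, Ptges followed at 72 h and Ptgds fell. Ptgis makes prostacyclin, which widens vessels and restrains platelets. It had 8.84, 7.45 and 8.87 FPKM in the control mice and stayed between 6.39 and 9.05 FPKM at 10 min and 1 h, overlapping control. At 6 h the values were 18.0, 11.1 and 15.3 FPKM (log2FC 0.73 ± 0.17, adjusted p = 0.0192) and at 24 h 11.2, 13.5 and 19.9 FPKM (log2FC 0.73 ± 0.2, adjusted p = 0.0276). No mouse of 6 h or 24 h overlapped the control mice, but the calls did not hold with fewer control mice. Without control mouse 1, 2 or 3 the adjusted p was 0.0575, 0.0717 or 0.0564 at 6 h and 0.0783, 0.0966 or 0.0715 at 24 h, and without mouse 2 of 24 h it was 0.0527. At 72 h Ptgis had 32.8, 29.1 and 27.7 FPKM, 3.56 times the control mean (log2FC 1.72 ± 0.092, adjusted p = 5.72e-07; 1.43 above the median of all genes). These 3 mice lay above all mice of every other group.

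Ptges, the inducible prostaglandin E synthase that works downstream of Ptgs2, had 0.802, 0.761 and 0.824 FPKM in the control mice. At 6 h 1 of the 3 mice stood apart, with 0.8, 0.848 and 2.02 FPKM, and at 24 h the spread was wider still, with 1.33, 0.878 and 4.53 FPKM. Mouse 3 of 24 h was also the highest of its group for Ptgs2, Ptgis and Alox5ap. Neither time was called (log2FC 0.27, adjusted p = 0.328 at 6 h, and 0.69, adjusted p = 0.175 at 24 h), although all 3 mice of 24 h were above the control mice. At 72 h the mice had 2.18, 2.26 and 2.16 FPKM, 2.76 times the control mean, with a much smaller spread (log2FC 0.83 ± 0.078, adjusted p = 1.57e-05; 0.54 above the median of all genes). A pseudocount of 0.1 gave 1.36 and quantile normalization 0.27 (adjusted p = 0.00845).

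Ptgds encodes the lipocalin-type prostaglandin D synthase and was the most abundant of the 10 genes in control hearts. It had 78.8, 77.6 and 69.0 FPKM there, and between 56.6 and 94.2 FPKM in the 12 mice from 10 min to 24 h. At 6 h its 3 mice, with 81.9, 94.2 and 79.7 FPKM, were above the control mice, but the difference was not called (log2FC 0.18 ± 0.092, adjusted p = 0.177). At 72 h the level fell to 28.5, 20.8 and 21.9 FPKM, below all other 15 mice. The mean of 23.7 ± 4.18 FPKM was 3.17 times lower than the control mean of 75.1 ± 5.32 (SD, n = 3; log2FC -1.63 ± 0.12, adjusted p = 2.97e-06; -1.92 relative to the median of all genes). Ptgds made up 62.3% ± 2.19 of the summed FPKM of the 10 genes in control hearts and 15.9% ± 2.21 at 72 h, while that sum stood at 120 ± 4.42 FPKM in control hearts and 149 ± 5.26 FPKM at 72 h. Ptgds exceeded Ptgis 9.04 ± 1.32 times in control mice, and at 72 h the ratio was 0.791 ± 0.0769.

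In the lipoxygenase branch, the enzyme and its activating protein went in opposite directions. Alox5 had 6.07, 6.58 and 6.62 FPKM in the control mice, and at 10 min and 1 h its mice overlapped them, between 5.52 and 6.8 FPKM. At 6 h it was down to 4.1, 3.54 and 4.85 FPKM, below every control mouse (log2FC -0.53 ± 0.12, adjusted p = 0.0161). That call needed all 3 control mice, with an adjusted p of 0.0524, 0.0637 and 0.0675 without control mouse 1, 2 and 3. At 24 h the mice had 5.72, 4.36 and 4.74 FPKM, also below the control mice but not called (log2FC -0.33, adjusted p = 0.0592). Other settings called this difference, with an adjusted p of 0.0284 after median-of-ratios scaling, 0.0222 after quantile normalization, 0.0277 with all 18 mice in 1 fit and 0.0195 without mouse 1 of 24 h. At 72 h the values were 4.64, 4.11 and 3.4 FPKM (log2FC -0.56 ± 0.1, adjusted p = 0.000943; -0.85 relative to the median of all genes). After quantile normalization the difference was -1.07. The mice of 6 h, 24 h and 72 h overlapped one another.

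Alox5ap, which brings arachidonic acid to 5-lipoxygenase at the nuclear membrane, was higher than control at every time from 6 h on. It had 1.81, 1.79 and 1.99 FPKM in the control mice, 2.31, 2.05 and 2.14 FPKM at 10 min and 2.55, 2.37 and 1.77 FPKM at 1 h, with no call at either time, though the 3 mice of 10 min were above the control mice. At 6 h the values were 8.15, 3.52 and 5.45 FPKM (log2FC 1.17 ± 0.23, adjusted p = 0.0117), at 24 h 9.32, 8.33 and 20.9 FPKM (log2FC 2.16 ± 0.31, adjusted p = 0.00527) and at 72 h 26.3, 27.1 and 31.7 FPKM (log2FC 3.35 ± 0.088, adjusted p = 1.94e-08). The groups of 1 h, 6 h, 24 h and 72 h did not overlap, each lying above the one before. The mean at 72 h was 15.2 times that of the control mice, and the difference was 3.06 above the median of all genes. Alox5ap stood below Alox5 in every control mouse, at a ratio of 0.291 ± 0.0158, and above it at 72 h, at 7.19 ± 1.89 (SD, n = 3). In between, the ratio was 1.37 ± 0.541 at 6 h and 2.65 ± 1.53 at 24 h. Of the exon bases of Alox5ap, 13.3% overlap an antisense gene that is not a row of the table, and the library kit is not stated to keep the strand, so fragments of that gene could not be told apart from those of Alox5ap.

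Alox15, a further lipoxygenase, was close to the limit of measurement in most mice. It was listed at 0 in 2 of the 3 control mice and at 0.0939 FPKM in the other, and no mouse of 6 h or 24 h passed 0.091 FPKM. At 72 h it had 1.18, 1.02 and 0.682 FPKM (log2FC 0.92 ± 0.12, adjusted p = 9.87e-05; 0.63 above the median of all genes), all above the control mice. A single mouse of 1 h also reached 1.06 FPKM, beside 0.0604 and 0.072 FPKM in its group, and the difference at 1 h was not called (log2FC 0.36, adjusted p = 0.57). In that mouse the eosinophil markers summed to 0.022 FPKM, within the 0 to 0.0745 FPKM of its group, and the mesothelial markers to 1.84 FPKM, the lowest of the group. The same mouse was the highest of the group for B cell markers (3.3 FPKM, against 1.76 and 1.88) and T cell markers (0.605 FPKM). So it was for pan-leukocyte (8.39 FPKM, against 7.56 and 7.55), endothelial (404 FPKM), cardiomyocyte (39919 FPKM) and adipocyte markers (0.176 FPKM). That mouse was the lowest for macrophage (137 FPKM, against 161 and 144), fibroblast, mural and erythroid markers. For neutrophil (19.9 FPKM) and monocyte (2.72 FPKM) markers it lay between the others. The part of these cell types was not tested. At 72 h the difference ran from 0.44 after quantile normalization to 3.06 with a pseudocount of 0.1 and the call held in all settings that could test it. Alox15 passed the filter of 1 FPKM only through mice 1 and 2 of 72 h and mouse 3 of 1 h. The filter on mean FPKM left it out.

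Both synthases that act on leukotriene A4 were higher at 72 h, after a fall of Ltc4s at 6 h. Ltc4s, which couples leukotriene A4 to glutathione, had 1.26, 1.24 and 0.906 FPKM in the control mice and 0.926, 0.507 and 0.831 FPKM at 10 min, where the ranges overlapped (log2FC -0.29, unadjusted p = 0.0393, adjusted p = 0.312). At 1 h it overlapped the control mice, at 0.933 to 1.34 FPKM. At 6 h the 3 mice had 0.27, 0.46 and 0.47 FPKM, all below the control mice (log2FC -0.61 ± 0.11, adjusted p = 0.00779). At 24 h they had 0.781, 1.07 and 0.434 FPKM and overlapped control (log2FC -0.29, adjusted p = 0.175). At 72 h Ltc4s stood at 3.08, 2.35 and 2.44 FPKM, 2.31 times the control mean (log2FC 0.76 ± 0.11, adjusted p = 0.000267; 0.47 above the median of all genes). This last call was lost after quantile normalization (log2FC 0.2, adjusted p = 0.176). An antisense gene that is not in the table overlaps 26.4% of the exon bases of Ltc4s.

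Lta4h, the hydrolase that makes leukotriene B4, kept near its control level until 24 h. Its level was 22.0, 22.7 and 22.1 FPKM in the control mice and between 21.2 and 24.5 FPKM at 10 min and 1 h. At 6 h the mice had 18.5, 19.7 and 19.7 FPKM, below all control mice, but the difference was not called (log2FC -0.2, adjusted p = 0.0771), and with all 18 mice in 1 fit it was (adjusted p = 0.0456). At 24 h the 25.1, 25.7 and 22.1 FPKM overlapped control. At 72 h Lta4h had 43.1, 44.4 and 44.7 FPKM, 1.98 times the control mean and above all other mice (log2FC 0.95 ± 0.057, adjusted p = 1.11e-06; 0.67 above the median of all genes). Lta4h exceeded Ltc4s 20.0 ± 3.77 times in control mice, 51.1 ± 15.3 times at 6 h and 17.0 ± 2.65 times at 72 h (SD, n = 3), with no overlap between the ratios of control and 6 h. Mouse 2 of 10 min (48.4) and mouse 3 of 24 h (51.0) lay within the 6 h range of 41.8 to 68.8. At 6 h the ratio divides by an Ltc4s level under 1 FPKM.

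**Figure D3:**
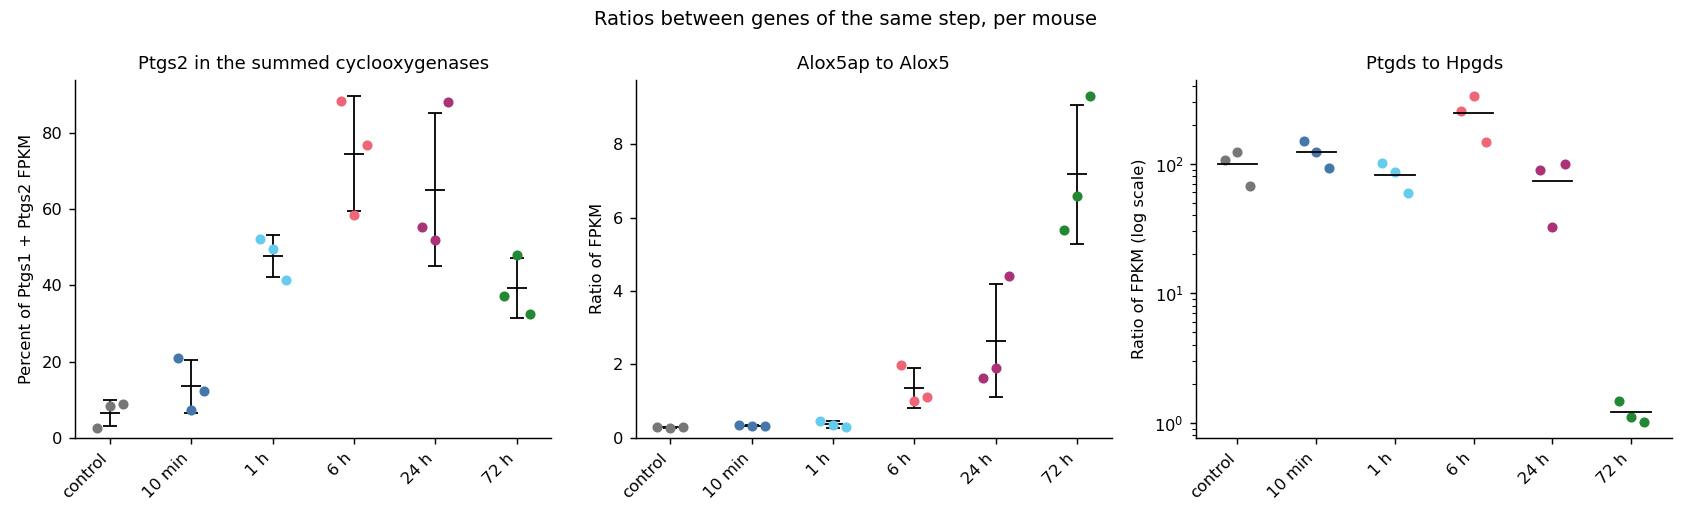
Ratios within each mouse between genes whose products act at the same step, by group, with points for mice and dashes for group means; bars in the first and middle panels are SD, and the right axis is logarithmic. Ptgs2 went from 6.61% to 74.5% of the summed cyclooxygenase FPKM at 6 h, Alox5ap over Alox5 from 0.291 to 7.19 at 72 h, and Ptgds over Hpgds from 99.0 to 1.2 at 72 h. Hpgds was near or under 1 FPKM in control mice and at 6 h.

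Successive time points were compared directly with the same test, and these comparisons share mice with each other and with those above. Between 10 min and 1 h 1 of the 10 genes, Ptgs2, was higher and none was lower by limma, against 0.391% and 0.211% of all genes, and 3 of the 10 had an unadjusted p under 0.05. Between 1 h and 6 h Ptgs2, Ptgis and Alox5ap were higher and Alox5 and Ltc4s lower, 3 and 2 of the 10, against 9.32% and 11.2% of all genes. Between 6 h and 24 h none of the 10 was called by limma, against 12.5% of all genes higher and 1.94% lower. These shares depended on the setting, at 3.02% and 2.76% after median-of-ratios scaling, 2.78% and 2.08% after quantile normalization, 36.4% and 7.52% with all 18 mice in 1 fit, and 1 gene and 0 genes with a replicate block. In the fit of each comparison on its own 6 mice 3 of the 10 had an unadjusted p under 0.05, namely Alox5ap (log2FC 0.99, adjusted p = 0.101), Lta4h (0.32, adjusted p = 0.0885) and Ptgs1 (-0.34, adjusted p = 0.0912), and all of them were called when all 18 mice shared 1 fit. For Ptgs2 the difference between 24 h and 6 h was -0.92 with an SE of 0.72, so that a fall after 6 h was not established with these mice. Between 24 h and 72 h 6 of the 10 were higher and 1, Ptgds, was lower, against 29.7% and 13.5% of all genes. Ptgs2 was not among them (log2FC -0.58 ± 0.59, adjusted p = 0.454), nor were Ptges (0.14, adjusted p = 0.776) and Alox5 (-0.23, adjusted p = 0.211). Without mouse 3 of 24 h Ptges was called higher at 72 h than at 24 h (log2FC 0.61, adjusted p = 0.00573).

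Leukocyte markers moved with several of these genes. In whole tissue, fewer cells of a type and less RNA per cell cannot be told apart. The neutrophil markers (S100a8, S100a9, Csf3r, Cxcr2 and Retnlg) summed to between 2.32 and 4.99 FPKM in control mice and to 997, 116 and 375 FPKM at 6 h, with 5 of 5 called higher. At 24 h their sum was 209, 42.6 and 965 FPKM and at 72 h between 49.6 and 60.2 FPKM, with 4 of 5 higher at each time. Mouse 1 of 6 h and mouse 3 of 24 h, which had the most neutrophil marker RNA of their groups, also had the most Ptgs2, Ptgis and Alox5ap RNA. The same mice were also highest of their groups for monocyte, pan-leukocyte, platelet, endothelial, B cell, T cell and adipocyte markers, but not for macrophage markers. Ptges at 6 h was highest in mouse 3 (2.02 FPKM, against 0.8 FPKM in mouse 1). At 1 h the neutrophil sum was 16.6 to 29.9 FPKM, with 2 of 5 called, and mouse 1 of that group was the highest both for it and for Ptgs2. Monocyte markers (Ly6c2, Ccr2 and Plac8) went from a sum of 1.96 to 2.76 FPKM in control mice to 61.8 to 71.8 FPKM at 72 h, with 3 of 3 higher at each time from 6 h. Macrophage markers (Adgre1, Csf1r, Cd68, C1qa and Mrc1) summed to 138 to 155 FPKM in control mice, 122 to 144 FPKM at 6 h with 1 higher and 1 lower, 215 to 256 FPKM at 24 h with 4 of 5 higher and 1189 to 1486 FPKM at 72 h with 5 of 5 higher. The part of these cells in the changes of the 10 genes was not tested.

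**Figure D4:**
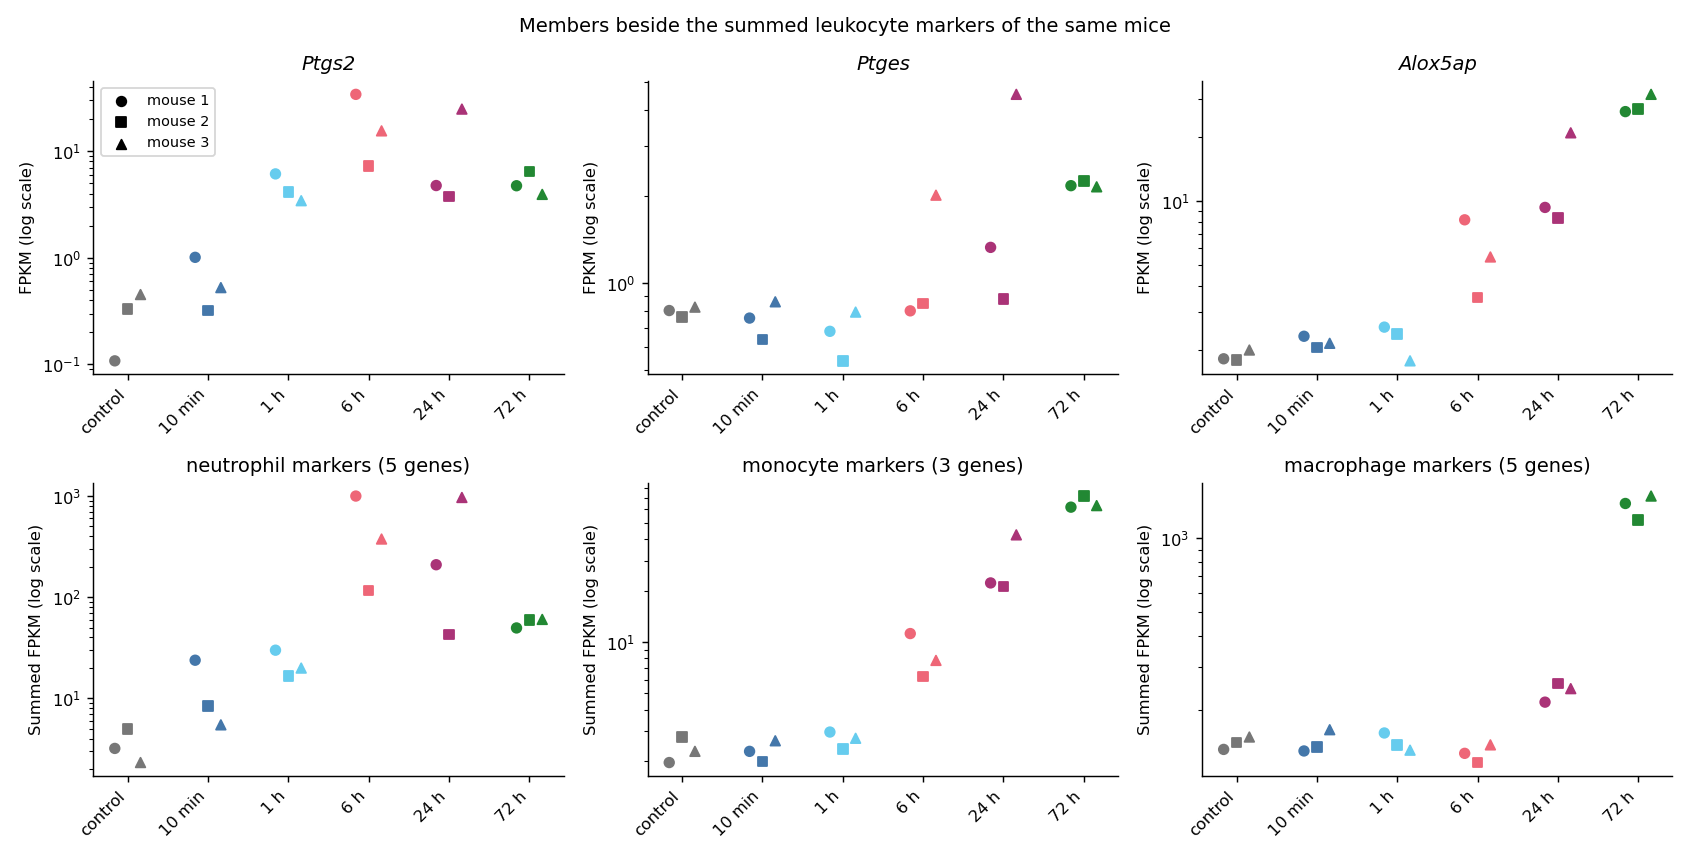
FPKM of Ptgs2, Ptges and Alox5ap (upper row) and summed FPKM of neutrophil, monocyte and macrophage markers (lower row) in each mouse, on logarithmic axes, with 1 symbol shape for each mouse number within a group. Mouse 1 of 6 h and mouse 3 of 24 h were highest of their groups for Ptgs2, Alox5ap, the neutrophil markers (997 and 965 FPKM) and the monocyte markers. Ptges was highest in mouse 3 at both times. The macrophage markers rose mainly at 72 h, to between 1189 and 1486 FPKM.

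Other cell types moved at 72 h too, when all 10 genes were called. Cardiomyocyte markers summed to 39099 to 41246 FPKM in control mice. At 24 h their sum was 27008 to 34013 FPKM, with 2 of 5 lower, while Ptgds was not called (adjusted p = 0.551 by limma). At 72 h their sum was 16216 to 19775 FPKM, with 5 of 5 lower, beside the fall of Ptgds. Fibroblast markers went from 180 to 190 FPKM up to 1757 to 2128 FPKM, with 5 of 5 higher, and pan-leukocyte markers from 6.54 to 8.08 FPKM up to 125 to 161 FPKM, with 3 of 3 higher. Platelet markers, which include genes that macrophages also use, summed to 17.1 to 20.4 FPKM in control mice and 184 to 206 FPKM at 72 h, with 3 of 4 higher. Endothelial markers were 389 to 432 FPKM in control mice and 333 to 436 FPKM at 72 h, with 2 of 4 lower, and mural markers 173 to 193 and 130 to 165 FPKM, with 3 of 4 lower and 1 higher. Mesothelial markers, at 18.2 to 62.7 FPKM, were higher for 2 of 3. Mast cell markers, a cell type known for Ltc4s, Alox5 and Hpgds, summed to 0.881 to 2.98 FPKM in control mice and 1.83 to 4.05 FPKM at 72 h, and neither of the 2 that were tested was called. Eosinophil markers summed to between 0 and 0.0528 FPKM in control mice and 1.32 to 1.85 FPKM at 72 h, when the 1 that was tested, Siglecf, was higher, and Epx was listed at 0 in every mouse. Their sum was at most 0.63 FPKM before 72 h, so Siglecf passed the filter of 1 FPKM only through the mice of 72 h. Adipocyte and T cell markers, none of which could be tested, stayed at or below 1.54 FPKM in sum, B cell markers at or below 3.42 FPKM with 1 of 1 higher at 72 h, and Schwann cell markers at or below 4.5 FPKM with 1 of 1 lower. Erythroid markers ran from 28.8 to 2384 FPKM, with 1 of 3 lower at 72 h. Whether any of these cell types contributed to the levels of the 10 genes was not tested.

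The other genes of the pathway were taken as a list of 42, of which 30 could be tested. By limma none of the 30 was called at 10 min, although 6 passed an unadjusted p of 0.05. After 1 h 1 gene was higher. The 6 h mice had 6 genes higher and 4 lower, the 24 h mice 11 and 4, and the 72 h mice 18 and 8. As shares of the 30 these were 20.0% and 13.3% at 6 h, beside 11.6% and 16.8% of all genes, then 36.7% and 13.3% beside 26.2% and 11.4% at 24 h, and 60.0% and 26.7% beside 53.1% and 24.2% at 72 h, so that the 72 h counts lay near those of all genes. Their median log2 fold change at 72 h was 0.49, against 0.88 for the 10 genes and 0.288 for all genes. The early counts depended on single mice. The 1 gene of 1 h was lost without any 1 of the control mice and without mouse 1 or 3 of 1 h, the 4 lower genes of 6 h became 1 without any 1 of the control mice and 2 without mouse 1 of 6 h, the 11 higher genes of 24 h became 5 and the 4 lower genes 2 without any 1 of the control mice, and the latter became 7 without mouse 2 of 24 h.

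**Figure D5:**
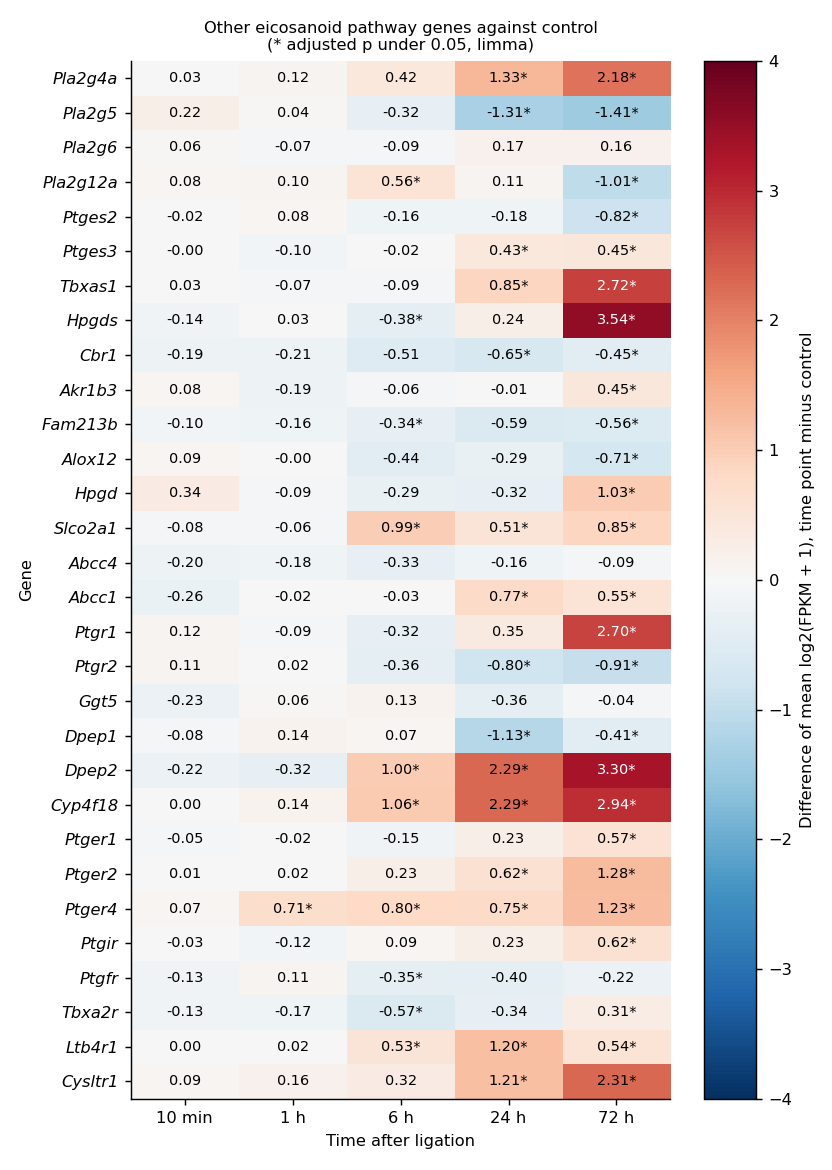
Differences of mean log2(FPKM + 1) between each time point and control for the 30 tested genes of the pathway that are not among the 10, ordered by role from phospholipases to receptors, with an asterisk for an adjusted p under 0.05 by limma. Hpgds (3.54), Dpep2 (3.3) and Cyp4f18 (2.94) had the highest values at 72 h, and Pla2g5 (-1.41) and Pla2g12a (-1.01) the lowest.

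Upstream of both branches, the phospholipases A2 split. Pla2g4a, the cytosolic enzyme that frees arachidonic acid, had 0.973, 1.07 and 1.1 FPKM in the control mice, 3.45, 3.93 and 5.2 FPKM at 24 h (log2FC 1.33, adjusted p = 0.00253) and 7.72, 9.8 and 7.4 FPKM at 72 h (log2FC 2.18, adjusted p = 3.7e-07). Its gene is a neighbour of Ptgs2 on chromosome 1, with 139 kb between its end and the start of Ptgs2 in mm10, but at 1 h, when Ptgs2 was up, Pla2g4a differed by 0.12 from control and was not called. The secreted Pla2g5 went the other way, from 22.4, 18.3 and 19.0 FPKM in the control mice to 9.86, 5.05 and 6.38 FPKM at 72 h (log2FC -1.41, adjusted p = 0.000166). Pla2g12a, also secreted, was higher at 6 h (log2FC 0.56, adjusted p = 0.0103) and lower at 72 h (-1.01, adjusted p = 3.65e-06).

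Of the terminal synthases outside the 10, Hpgds moved opposite to Ptgds. Hpgds, the hematopoietic prostaglandin D synthase, makes the same product as Ptgds. It had 0.742, 0.628 and 1.02 FPKM in the control mice and 19.4, 18.7 and 21.5 FPKM at 72 h, 24.9 times the control mean (log2FC 3.54 ± 0.1, adjusted p = 2.68e-08), with no overlap of the groups. At 6 h it was lower, at 0.323, 0.282 and 0.545 FPKM (log2FC -0.38, adjusted p = 0.0489), a call lost without any 1 of the control mice (adjusted p from 0.068 to 0.148) and without mouse 1 or 2 of 6 h (0.106 and 0.108). Ptgds exceeded Hpgds 99.0 ± 28.7 times in control mice, 244 ± 93.9 times at 6 h and 1.2 ± 0.239 times at 72 h (SD, n = 3). In control mice and at 6 h this ratio divides by an Hpgds level near or under 1 FPKM. Tbxas1, the thromboxane synthase, rose from 0.786 to 2.26 FPKM on average at 24 h (log2FC 0.85, adjusted p = 0.00891) and to 10.8 FPKM at 72 h (2.72, adjusted p = 2.34e-08), so that its level at 72 h stood below that of the prostacyclin synthase Ptgis, as it did in control mice. Ptges2, another prostaglandin E synthase, fell at 72 h (log2FC -0.82, adjusted p = 7.79e-06), when Ptges rose, and Ptges3 was higher from 24 h (0.43, adjusted p = 0.025). The Ptges3 calls were lost after median-of-ratios scaling (adjusted p = 0.0637 at 24 h and 0.0942 at 72 h) and quantile normalization (0.0879 and 0.171), and that of 24 h also without any 1 of the control mice (0.0685 to 0.0942). Cbr1, a carbonyl reductase that acts on prostaglandin E2, was lower at 24 h (-0.65, adjusted p = 0.0305), a call lost when any 1 of the control mice was left out (0.0598 to 0.108). It was also called lower at 72 h (-0.45, adjusted p = 0.00596). Fam213b, a prostaglandin F synthase, was lower at 6 h (-0.34, adjusted p = 0.0316) and at 72 h (-0.56, adjusted p = 7.1e-05). Alox12, a 12-lipoxygenase, was lower at 72 h as well (-0.71, adjusted p = 0.000758). The 6 h call of Fam213b was lost without any 1 of the control mice (adjusted p from 0.0911 to 0.112), without mouse 1 or 3 of 6 h (0.065 and 0.0557) and after median-of-ratios scaling (0.116).

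Genes of uptake and breakdown were also called, of which Slco2a1, Hpgd and Ptgr1 were chosen for naming after their values had been seen. Slco2a1, the prostaglandin transporter, was higher at 6 h (log2FC 0.99, adjusted p = 0.00315) and at 72 h (0.85, adjusted p = 0.000131), and its call at 24 h (adjusted p = 0.0387) was lost without any 1 of the control mice (0.0936 to 0.122) and without mouse 2 of 24 h (0.0578). Hpgd, the dehydrogenase that inactivates prostaglandins, was higher at 72 h (1.03, adjusted p = 4.59e-05), as was Ptgr1 (2.7, adjusted p = 1.45e-07), which reduces their products and inactivates leukotriene B4, whereas Ptgr2 was lower (-0.91, adjusted p = 6.06e-06). Dpep2, a dipeptidase that converts leukotriene D4, rose from 0.98, 0.943 and 0.713 FPKM in the control mice to 17.0, 16.7 and 18.9 FPKM at 72 h (3.3, adjusted p = 2.21e-08), while Dpep1 fell at 24 h (-1.13, adjusted p = 0.00457). Cyp4f18, which breaks down leukotriene B4 in neutrophils, went from 0.524, 0.249 and 0.332 FPKM in the control mice to 4.08, 3.02 and 13.6 FPKM at 24 h (2.29, adjusted p = 0.0112), with mouse 3 highest as for the neutrophil markers, and to 8.46, 8.94 and 11.1 FPKM at 72 h (2.94, adjusted p = 1.29e-07).

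Among the receptors, Ptger4 was the 1 gene of the 30 called at 1 h. Ptger4, a receptor of prostaglandin E2, had 3.12, 3.12 and 3.14 FPKM in the control mice and 6.46, 4.83 and 6.04 FPKM at 1 h (log2FC 0.71 ± 0.1, adjusted p = 0.0287). That call was lost without any 1 of the control mice (adjusted p from 0.113 to 0.127), without mouse 1 or 3 of 1 h (0.0811 and 0.0586), with all 18 mice in 1 fit (0.109) and without the filter on low FPKM (0.0859). Ptger4 was higher at every later time, with 7.75, 9.39 and 8.9 FPKM at 72 h (1.23, adjusted p = 2.52e-06), although the call at 24 h (adjusted p = 0.015) was lost without any 1 of the control mice (0.0543 to 0.0602). Ptger2, which binds the same ligand, was higher at 72 h (1.28, adjusted p = 1.5e-05). The leukotriene B4 receptor Ltb4r1 had at most 0.0335 FPKM in control mice and 0.993, 0.421 and 3.58 FPKM at 24 h (1.2, adjusted p = 0.0472), again with mouse 3 highest. Ltb4r1 passed the filter of 1 FPKM only through this mouse, and without the filter limma gave an adjusted p of 0.0807 at 24 h. With any 1 of the control mice left out the adjusted p at 24 h was 0.112 to 0.12, without mouse 1 of 24 h 0.0652 and after quantile normalization 0.0781. Ltb4r1 was called higher at 72 h too (0.54, adjusted p = 0.000371), but not after quantile normalization (0.374) or with all 18 mice in 1 fit (0.0919). Cysltr1, a receptor of the cysteinyl leukotrienes, was higher at 24 h (1.21, adjusted p = 0.00355) and 72 h (2.31, adjusted p = 4.06e-08). The thromboxane receptor Tbxa2r was lower at 6 h (-0.57, adjusted p = 0.00346), as was Ptgfr, which binds prostaglandin F2alpha (-0.35, adjusted p = 0.0487). The Ptgfr call was lost without any 1 of the control mice (adjusted p from 0.0643 to 0.152) and without mouse 1 or 2 of 6 h (0.101 each). At 72 h Tbxa2r was called higher as deposited (0.31, adjusted p = 0.011), but its change was 0.02 above the median of all genes, it was not called after median-of-ratios scaling (0.14, adjusted p = 0.167), and quantile normalization called it lower (-0.22, adjusted p = 0.0377).

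The genes with the most similar course were sought for each of the 10 among 11996 genes (11997 for Alox15, which is not itself among them). Likeness was the root mean square distance between log2(FPKM + 1) values over the 18 mice after centring and scaling, so that 0 is an identical course. Alox5ap had the closest neighbour, AB124611 at 0.1, while the median distance of all genes was 1.04. Ptgs2 was nearest to Socs3, an inhibitor of cytokine signalling, at 0.19 and to Nfil3 at 0.303 (median 1.4). Socs3 averaged 1.61 FPKM in control mice and had its highest group mean at 6 h, as Ptgs2 did, at 51.6 FPKM, after 12.9 FPKM in the 1 h mice and before 23.8 and 14.6 FPKM in the 24 h and 72 h mice. Lta4h was nearest to Maged1 (0.154) and Nagk (0.156), Ptgis to Nek6 (0.208) and Gpr39 (0.222), and Ptgds was near Mypn, a sarcomere protein (0.233). The others had looser neighbours, from 0.311 for Ltc4s and Tmem106c to 0.505 for Alox15 and Slit2. Within the 10 genes, Ptgis and Alox5ap were the nearest pair, at 0.314, followed by Ltc4s and Lta4h at 0.522, and Ptgs2 was nearest to Ptgis, at 0.913. These distances are descriptions over mice that share their groups.

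In mm10, with gene bounds of GENCODE M21, 4 of the 10 genes lie on chromosome 2, namely Ptgds (25466709 to 25470046), Ptges (30889471 to 30929863), Ptgs1 (36230426 to 36252272) and Ptgis (167191805 to 167240604). Ptgs2 is on chromosome 1 (150100031 to 150108227), Alox5ap on chromosome 5 (149264767 to 149288153), Alox5 on chromosome 6 (116410077 to 116461178) and Lta4h on chromosome 10 (93453411 to 93484875). Ltc4s (50236461 to 50238616) and Alox15 (70344152 to 70352031) share chromosome 11. Of the 4 genes of chromosome 2, Ptgds fell and Ptgis, Ptges and Ptgs1 rose at 72 h. FPKM were counted over each gene as a whole, so the values do not separate transcripts or exons.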

How the data were processed

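RNA was measured in heart tissue of 18 mice, 3 in each of 6 groups taken from the sample titles. The authors extracted total RNA with RNAiso, made poly-A libraries with a NEBNext Ultra kit that is not stated to keep the strand, used cutadapt 1.18 for trimming, aligned to mm10 by Hisat2 2.1.0 and obtained expression from stringtie 1.3.4d. The deposited values are FPKM per gene symbol as the authors made them, for each mouse, and the annotation is not given in the sources used here. FPKM were used as deposited. In 4 of the 18 columns the name was read as a typing variant of the sample title.

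Of 24419 symbols, 13333 reached 1 FPKM in 1 or more mice and were tested as log2(FPKM + 1), with a pseudocount of 1, by limma 3.58.1 in R 4.3.3 (lmFit, then eBayes with a variance trend), for 9 comparisons, each on its own 6 mice. Genes constant in a comparison were left out of it. Ptgs2, Ptges and Alox15 were under 1 FPKM in every control mouse and passed the filter only through mice of other groups. The test is two-sided, and adjusted p is by Benjamini and Hochberg over all genes tested. The counting test of the authors needs reads and was not repeated. The steps were tested on simulated data. Plots and summaries used Python 3.11.15, numpy 2.4.6, pandas 2.3.3 and matplotlib 3.10.9.

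The table holds no counts, so depth is known only relatively, and precision comes from the spread of 3 mice. No pairing of mice across groups is stated.

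All 10 genes are named. Of the other pathway genes, up to 2 higher and 2 lower with the largest change were named per role and time, plus those the results turn on, and the 2 nearest genes were named for likeness, from genes with a mean FPKM of at least 1. Some of these nearest genes are not reported here. The 10 genes and all lists were chosen with earlier results of these data known. Tried as alternatives were 3 scalings (equal sums, quantile normalization, median-of-ratios), a pseudocount of 0.1, testing without the filter or with one on mean FPKM, a fit of all 18 mice together, a replicate block, no variance trend and leaving out each mouse. The proteome was not analysed here.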

Additional observations from a re-analysis of the deposited data

Results flagged for a closer look

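Differences between successive time points passed the test itself for 13 results of the 10 genes, which share mice and are given as values. Between 10 min and 1 h Ptgs2 rose by 1.77 on the log2 scale (adjusted p = 0.0133 by limma), higher in 3 of 3 mice. This call was lost without mouse 3 of 10 min (adjusted p = 0.0809) or mouse 2 of 1 h (adjusted p = 0.0522).

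Between 1 h and 6 h the difference was 1.63 for Ptgs2 (adjusted p = 0.0489), 0.78 for Ptgis (adjusted p = 0.0191) and 1.0 for Alox5ap (adjusted p = 0.0296), with all 3 mice of 6 h above those of 1 h. It was -0.47 for Alox5 (adjusted p = 0.0409) and -0.61 for Ltc4s (adjusted p = 0.0119), with all 3 mice below. Without mouse 1, 2 or 3 of 1 h the adjusted p was 0.0841, 0.134 or 0.135 for Ptgs2, 0.0657, 0.0734 or 0.054 for Ptgis, 0.0685, 0.0863 or 0.095 for Alox5ap and 0.0739, 0.149 or 0.11 for Alox5. For Ltc4s the call was lost without mouse 2 of 1 h (adjusted p = 0.0504). Leaving out mice of 6 h gave 0.0681 without mouse 1 and 0.0907 without mouse 3 for Ptgs2, 0.0593 without mouse 3 for Alox5ap, and 0.0827 without mouse 1 and 0.088 without mouse 2 for Alox5.

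Between 24 h and 72 h the difference was 0.93 for Ptgs1 (adjusted p = 0.000597), 0.99 for Ptgis (adjusted p = 0.00578), 1.19 for Alox5ap (adjusted p = 0.017), 0.9 for Alox15 (adjusted p = 0.00159), 1.05 for Ltc4s (adjusted p = 0.00207), 0.84 for Lta4h (adjusted p = 0.000616) and -1.51 for Ptgds (adjusted p = 0.000786). The mice of the 2 times did not overlap for any of these 7. Only the call of Alox5ap was lost when 1 mouse was left out, with an adjusted p of 0.0635 without mouse 1 of 24 h, 0.052 without mouse 2 of 72 h and 0.0625 without mouse 3 of 72 h. Neutrophil, monocyte and macrophage markers also differed between these times or mice, and their part was not tested.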

How the results depend on the processing

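Over the alternatives for the 90 results of the 10 genes, 14 for each result of Alox15 and 15 for each of the others, 19 of 32 called results kept their call throughout and 13 lost it in at least 1. No called result changed sign, and 9 of 58 uncalled ones were called in at least 1 alternative. The number of the 10 genes called higher at 1 h went from 1 to 0 with all 18 mice in 1 fit, and that for 1 h against 10 min from 1 to 0 with that fit or without a filter. For 6 h against 1 h the higher genes went from 3 to 1 without a filter, to 2 with mice rescaled to the same sum (Ptgs2 lost, adjusted p = 0.053) or no variance trend (0.0511) and to 4 after median-of-ratios scaling (Ptgds gained, 0.0431), and the lower ones from 2 to 1 without a filter, after median-of-ratios scaling and with the replicate block. The genes lower at 24 h went from 0 to 1 after median-of-ratios scaling or with all 18 mice and to 2 after quantile normalization. For 24 h against 6 h the fit of all 18 mice called 2 higher and 1 lower in place of 0 and 0, and for 72 h against 24 h quantile normalization called 2 lower in place of 1. With 1 mouse left out, the counts ran from 2 to 3 higher and 1 to 2 lower at 6 h, from 1 to 3 higher and 0 to 1 lower at 24 h, from 0 to 1 higher for 1 h against 10 min, from 0 to 3 higher and 0 to 2 lower for 6 h against 1 h, and from 5 to 7 higher for 72 h against 24 h.

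Replicate numbers are not stated to pair mice, and with 3 mice per group correlations cannot settle whether they do. Correlations of same-numbered mice ran from -0.327 to 0.415, in 0 of 9 comparisons were all over 0.1, and in 1 of 9 each mouse correlated best with its own number. The replicate block changed 1 call of the 10 genes, Alox5 at 6 h against 1 h (adjusted p = 0.0829). Scaling moved the split of all called genes. At 72 h 7081 were higher and 3226 lower as deposited, 5243 and 4752 after median-of-ratios scaling, and 4278 and 5794 after quantile normalization. At 24 h the split was 3496 and 1516, 2535 and 2317, and 2118 and 2736, and at 6 h 1543 and 2233 as deposited and 1977 and 1513 after median-of-ratios scaling. For the other pathway genes, quantile normalization gave 13 in place of 8 lower at 72 h, and 7 higher and 10 lower in place of 11 and 4 at 24 h. The causes were not tested. Without counts, depth limits on genes near 0 FPKM, such as Alox15, could not be computed.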
